A study of Saccharomyces cerevisiae with 15 samples.

Results

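Budding yeast (Saccharomyces cerevisiae) makes its cysteine, methionine and glutathione from sulfate through an ordered set of steps, and 10 genes of that route were measured here: the permease genes SUL1 and SUL2, and MET3, MET14, MET22, MET16, MET5, MET10, MET1 and MET8. They were chosen by gene symbol, and all 10 of 10 were found among the 5539 named genes of the array, on 20 of 11138 named spots (2 spots a gene). The treated cells were wild type and had been kept in 1.0 mM arsenite, As(III), for 15 min (3 arrays), 30 min (3 arrays), 1 h (6 arrays) or 18 h (3 arrays), and their total RNA was read on spotted 2-colour arrays. Untreated wild-type RNA filled the second channel on all 15, and the labels name no strain, deletion or further agent for either side. The treated side carried Cy5 on 12 of the arrays, and Cy3 on 1 h replicates 1, 3 and 6. Separate cultures are not stated for the replicates, so p-values reflect only how these arrays vary, which may be technical variation. They also do not say whether the untreated cells were harvested alongside the treated ones at each time.

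Sulfate is taken up by proton-coupled permeases at the plasma membrane, joined to ATP, phosphorylated again, and reduced first to sulfite and then to sulfide. Sulfide is built into homocysteine, from which methionine, cysteine and the tripeptide glutathione are made. In yeast these genes are known targets of the activator Met4, which works with Cbf1, Met28, Met31 and Met32 and is held in check by the ubiquitin ligase subunit Met30. Glutathione and other thiols bind trivalent arsenic, which is the background against which this pathway is usually read in arsenite-treated yeast.

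Values are given as log2 ratios, treated over untreated, after subtraction of the array's median over genes, so that 0 is the median gene of that array and 1 is a doubling relative to it. The array medians over genes ran from -1.35 to 2.23 log2 units before that step, and a change shared by most transcripts cannot be seen after it. Arrays of 1 time point resembled each other least at 15 min, where the pairwise correlation across genes was -0.06 to 0.23. It was 0.41 to 0.93 at 30 min, 0.72 to 0.89 at 1 h and 0.45 to 0.73 at 18 h, so the early values rest on arrays that differ much among themselves. Duplicate spots correlated at 0.65 on 15 min replicate 1 and 0.84 on 30 min replicate 1, against 0.88 to 0.99 on the other arrays. Fitted values are from limma, with 1 mean for each time and a dye effect for each gene, which only the 1 h arrays could estimate. The threshold for a call was 0.05 on the p adjusted over all 5539 genes. Errors of fitted values are limma standard errors (SE).

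Most of the route was higher in arsenite-treated cells at 1 h, and the steps did not move alike. At 1 h, 8 of the 10 genes were called higher than in untreated cells and 1, SUL2, was called lower, where 17.1% of all genes were called higher and 22.6% lower. The split of the 10 genes was 6 higher and 1 lower without centring, where SUL1 (0.88) and MET22 (0.77) were not called. It was 8 and 0 with a trend over spot brightness removed from each array. The shares of 17.1% and 22.6% are not those of these alternatives. All genes called at 1 h numbered 2197 in the centred fit with no trend removed. They numbered 1316 to 3001 over the alternatives other than leaving out 1 array. The median fitted log2 ratio of the 10 genes was 1.94 at 1 h, against 0.02 over all genes. MET3, MET14 and MET16, which carry the steps from sulfate to sulfite, had the highest values, between 3.51 and 4.07. At 30 min 5 of the 10 were called higher, where 3.27% of all genes were, and the medians were 1.52 for the 10 genes and 0.05 for all genes. At 18 h 7 of the 10 were called higher, where 5.33% of all genes were, and the medians were 1.60 and 0.03. With the arrays scaled to an equal spread, 1 of the 10 was called at 30 min (MET8) and 3 at 18 h (SUL1, MET5 and MET8). At 15 min 0 of the 10 were called by limma, where 0.668% of all genes were called higher, and 6 of the 10 had an unadjusted p under 0.05, as did 539 of all 5539 genes.

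**Figure D1:**
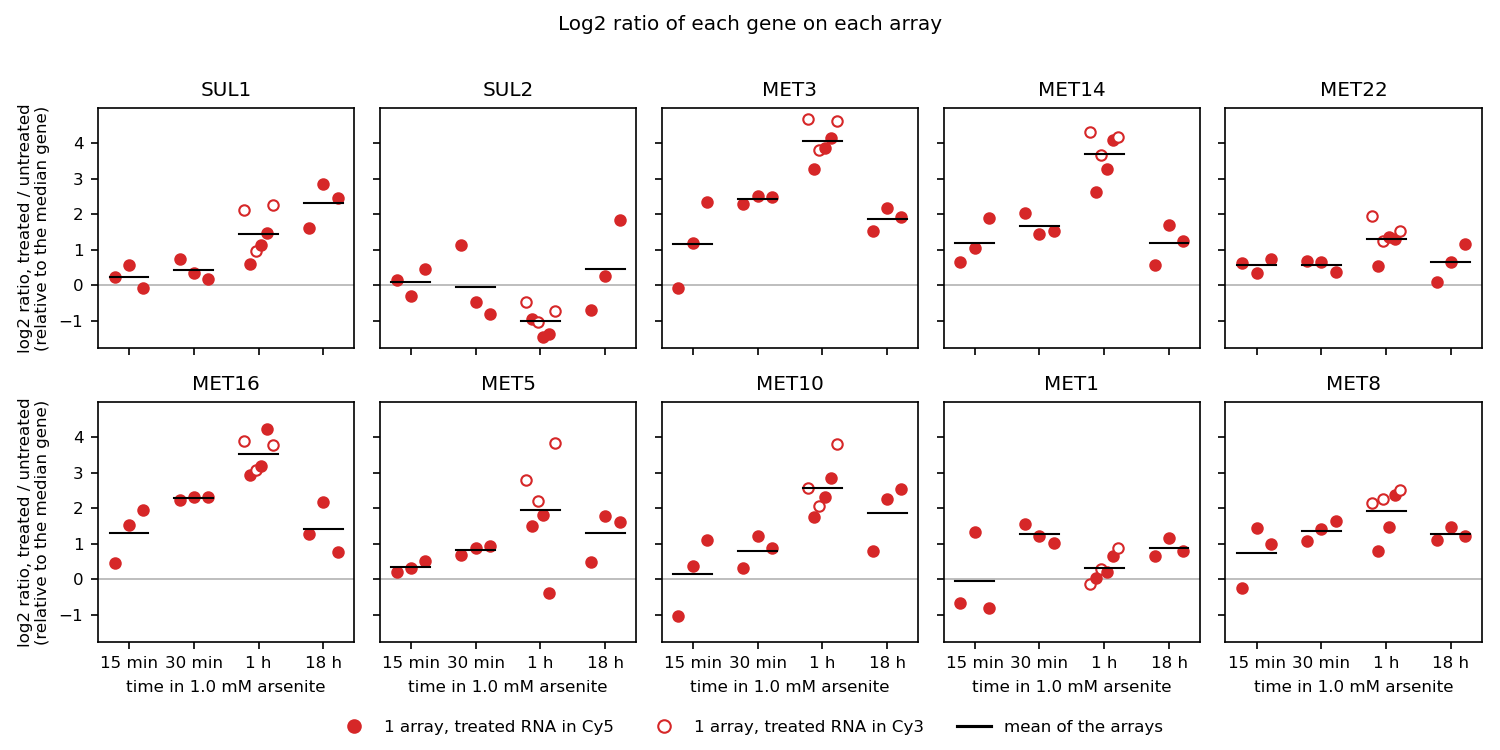
Centred log2 ratio of treated over untreated cells (vertical axis) for each of the 10 genes, by time in arsenite (horizontal axis). Each point is 1 array, filled where treated RNA was in Cy5 and open where it was in Cy3, and the bar is the mean of the arrays; MET3, MET14 and MET16 are at 2.64 or more on all 6 arrays at 1 h, and SUL2 lies below 0 on all 6.

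The permeases SUL1 (YBR294W) and SUL2 (YLR092W) encode the high-affinity sulfate transporters of the plasma membrane, and their transcripts took different courses. SUL1 had centred log2 ratios of 0.24, 0.59 and -0.08 on the 15 min arrays and 0.75, 0.34 and 0.20 on the 30 min arrays. At 1 h its lowest array was at 0.60, its median at 1.32 and its highest at 2.27, and the 18 h arrays gave 1.63, 2.84 and 2.47. All 6 arrays at 1 h and all 3 at 18 h were above 0, while no array of the first 30 min was above 0.75. SUL1 was called higher at 1 h (fitted 1.43 ± 0.20, 2.70-fold, limma adjusted p = 3.67e-05) and at 18 h (2.67 ± 0.35, 6.35-fold, adjusted p = 0.000389). It ranked 44th from the highest of all genes at 18 h, and was the gene of the 10 with the highest fitted value there. At 15 min and 30 min it was not called, at 0.60 and 0.78. Its difference between 18 h and 1 h, 1.23 ± 0.40, was not called (adjusted p = 0.158).

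SUL2 behaved otherwise. Its log2 ratios were 0.16, -0.31 and 0.46 at 15 min, and 1.14, -0.46 and -0.79 at 30 min. At 1 h they ran from -1.45 to -0.45 with a median of -0.99, and at 18 h they were -0.69, 0.27 and 1.85. The arrays disagreed in sign at each time except 1 h, where all 6 were below 0. SUL2 was called lower at 1 h (-0.99 ± 0.28, a 1.98-fold lower ratio, adjusted p = 0.00994) and was not called at 15 min (0.37 ± 0.48), 30 min (0.23 ± 0.48) or 18 h (0.74 ± 0.48). The spots of SUL2 were brighter than those of 97.5% of genes, by a brightness estimated from the ratios of 10 arrays. The channel intensities themselves were not known, since each ratio gives its 2 whole numbers only as a reduced fraction. With the brightness trend of each array removed, the 1 h value of SUL2 was -0.08 ± 0.13 (adjusted p = 0.667), and the call was lost. Under that setting SUL2 was called higher at 30 min (1.14 ± 0.23, adjusted p = 0.00427) and at 18 h (1.19 ± 0.23, adjusted p = 0.00277). Removing the trend also takes out any change that bright genes share, and the part of spot brightness in the lower ratio at 1 h was not tested further.

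On the same array SUL1 exceeded SUL2 by 1.56 to 2.97 log2 units at 1 h, with a mean of 2.42 (SD 0.54, n = 6 arrays). SUL1 was the higher of the pair on 6 of 6 arrays. The exact sign-flip permutation test, two-sided, gave p = 0.0312, which is the smallest that 6 arrays allow, and 0.0417 after adjustment over the 4 pairs compared. With the brightness trend removed the mean difference was 1.43, so it was smaller but of the same sign. At 15 min the differences were 0.08, 0.90 and -0.54, and at 30 min they were -0.40, 0.79 and 0.99. At 18 h they were 2.32, 2.57 and 0.62, above 0 on 3 of 3 arrays. A test of each of these times could not go below an exact p of 0.05 with 3 arrays and was not made.

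**Figure D2:**
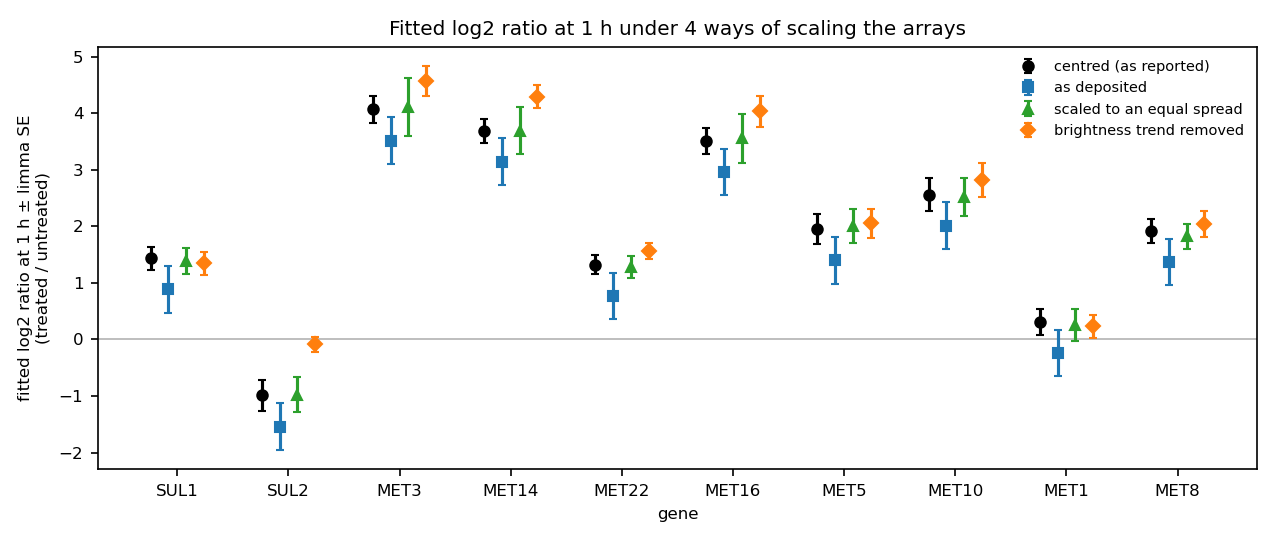
Fitted log2 ratio of treated over untreated cells at 1 h (vertical axis, with limma SE) for each gene (horizontal axis) under 4 ways of scaling the arrays. SUL2 moves to -0.08 with the brightness trend removed, whereas MET3, MET14 and MET16 are at 2.96 or more under all 4.

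MET3 (YJR010W) encodes ATP sulfurylase, the enzyme that joins sulfate to ATP and so commits it to the pathway. Its log2 ratios were -0.07, 1.20 and 2.36 on the 15 min arrays and 2.28, 2.53 and 2.50 on the 30 min arrays. At 1 h the lowest array was at 3.28, the median at 4.00 and the highest at 4.67, and the 18 h arrays were at 1.53, 2.18 and 1.93. Every 1 h array lay above every array of the other times, and replicate 1 was the low array at 15 min. MET3 had the highest fitted value of the 10 genes at 30 min (2.75 ± 0.41, 6.71-fold, adjusted p = 0.00277) and at 1 h (4.07 ± 0.24, 16.8-fold, adjusted p = 1.02e-08). It ranked 12th and 17th from the highest of all genes at those times. At 18 h the call held at 2.19 ± 0.41 (4.56-fold, adjusted p = 0.00492), and at 15 min the value of 1.47 ± 0.41 was not called (adjusted p = 0.151). Without 15 min replicate 1 the 15 min value was 2.09 (adjusted p = 0.0189).

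MET14 (YKL001C) encodes adenylylsulfate kinase, which phosphorylates the product of Met3 to phosphoadenosine phosphosulfate (PAPS). Its arrays gave 0.66, 1.05 and 1.90 at 15 min and 2.04, 1.44 and 1.54 at 30 min. At 1 h they ran from 2.64 to 4.31 with a median of 3.88, and at 18 h they gave 0.58, 1.71 and 1.26. After centring, all 15 arrays were above 0 and the 1 h arrays again stood above all others. The 18 h arrays overlapped the 15 min and 30 min arrays. Fitted values were 2.03 ± 0.37 at 30 min (4.09-fold), 3.69 ± 0.21 at 1 h (12.9-fold) and 1.54 ± 0.37 at 18 h (2.91-fold). All of these were called, with limma adjusted p of 0.00597, 7.74e-09 and 0.0179. At 15 min the value of 1.56 ± 0.37 was not called (adjusted p = 0.0713), though it was called without 1 h replicate 5, through the dye effect (1.75, adjusted p = 0.0338). The 18 h call was lost without 18 h replicate 2 (1.28, adjusted p = 0.0975) or replicate 3 (1.50, adjusted p = 0.064).

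MET16 (YPR167C) encodes PAPS reductase, which yields sulfite with electrons from thioredoxin. Its log2 ratios were 0.45, 1.52 and 1.96 at 15 min and 2.22, 2.31 and 2.30 at 30 min. The 1 h arrays ran from 2.94 to 4.21 with a median of 3.48, and the 18 h arrays were at 1.28, 2.16 and 0.77. The 30 min arrays had an SD of 0.05, the smallest among the 10 genes at that time. After centring, the 1 h arrays stood above all others. MET16 was called at 30 min (2.34 ± 0.39, 5.07-fold, adjusted p = 0.00474), at 1 h (3.51 ± 0.22, 11.4-fold, adjusted p = 1.64e-08) and at 18 h (1.47 ± 0.39, 2.77-fold, adjusted p = 0.0312). At 15 min it was not called, at 1.37 ± 0.39 (adjusted p = 0.155). The 18 h call was lost without any of 18 h replicates 1 and 2 or 1 h replicates 1, 2, 4 and 6, with values of 1.09 to 1.53 and adjusted p of 0.0531 to 0.167.

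MET22 (YOL064C) encodes the phosphatase that hydrolyses phosphoadenosine phosphate, the by-product that the PAPS reductase reaction leaves. Its log2 ratios were 0.63, 0.36 and 0.74 at 15 min and 0.68, 0.65 and 0.39 at 30 min. At 1 h they ran from 0.55 to 1.94 with a median of 1.33, and at 18 h they were 0.10, 0.66 and 1.18. All 15 arrays were above 0, and the 1 h arrays overlapped those of every other time. MET22 was called at 1 h alone (1.32 ± 0.17, 2.50-fold, adjusted p = 1.21e-05), with 0.83 at 15 min, 0.82 at 30 min and 0.90 at 18 h. On the same array at 1 h, MET14 exceeded MET22 by a mean of 2.37 log2 units (SD 0.33, range 1.93 to 2.79), on 6 of 6 arrays. The exact sign-flip test gave p = 0.0312 (adjusted over 4 pairs, 0.0417).

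The sulfite reductase subunits are encoded by MET10 (YFR030W), the flavoprotein that takes electrons from NADPH, and MET5 (YJR137C), the sirohaem-bearing subunit that reduces sulfite to sulfide. MET10 had log2 ratios of -1.03, 0.37 and 1.09 at 15 min and 0.31, 1.22 and 0.89 at 30 min. At 1 h they ran from 1.76 to 3.80 with a median of 2.44, and at 18 h they were 0.80, 2.25 and 2.54. After centring, the 15 min arrays spread across 0. The 1 h arrays were then all above every 15 min and 30 min array and overlapped those of 18 h. MET10 was called at 1 h (2.56 ± 0.29, 5.89-fold, adjusted p = 4.52e-06) and at 18 h (2.11 ± 0.51, 4.32-fold, adjusted p = 0.0188), and not at 15 min (0.40 ± 0.51) or 30 min (1.06 ± 0.51). The 18 h call was lost without 18 h replicate 2 (adjusted p = 0.0832) or replicate 3 (adjusted p = 0.0981).

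MET5 was the least even of the 10 genes at 1 h. Its log2 ratios were 0.19, 0.31 and 0.51 at 15 min and 0.69, 0.88 and 0.92 at 30 min. At 1 h the lowest array was at -0.40, the median at 2.00 and the highest at 3.82, and the 18 h arrays gave 0.49, 1.78 and 1.61. The low array was 1 h replicate 5, with treated RNA in Cy5, and the Cy3-treated arrays of that time (2.20 to 3.82) were all above the Cy5-treated ones (-0.40 to 1.80). On replicate 5 the spots of MET5 were at -0.73 and -0.07, its largest gap between spots on any array. MET5 was called at 1 h (1.95 ± 0.26, 3.87-fold, adjusted p = 2.46e-05), but not where only arrays with treated RNA in Cy5 were fitted (0.96, adjusted p = 0.0716). Its fitted dye effect of -0.99 entered its other values. With that effect taken out, the fit gave 1.82 ± 0.46 at 30 min (adjusted p = 0.0278) and 2.28 ± 0.46 at 18 h (adjusted p = 0.00676). With no dye term it gave 0.83 (adjusted p = 0.237) and 1.29 (adjusted p = 0.0871). With the dye term but without 1 h replicate 5 it gave 1.48 (adjusted p = 0.0334) and 1.94 (adjusted p = 0.00612). The size of the dye effect thus leaned on that array. The 18 h value of 1.29 was called where only the Cy5-treated arrays (adjusted p = 0.0326) or only the 18 h arrays (adjusted p = 0.0362) were fitted, and the 30 min value of 0.83 was called in neither. At 30 min the call was also lost without 30 min replicate 2 or 3 or 1 h replicate 6, with adjusted p of 0.0665 to 0.16.

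MET5 minus MET10 on the same array at 1 h ranged from -3.26 to 0.22, with a mean of -0.61 (SD 1.33, n = 6). It was above 0 on 3 of 6 arrays, and the exact sign-flip test gave p = 0.312 before and after adjustment over the 4 pairs. Without 1 h replicate 5 the mean was -0.08. The differences were 1.22, -0.06 and -0.58 at 15 min, 0.37, -0.34 and 0.04 at 30 min, and -0.31, -0.47 and -0.93 at 18 h. No difference between the subunits was detectable with these arrays at 1 h.

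Sirohaem, the cofactor of sulfite reductase, is made from uroporphyrinogen III by the methyltransferase Met1 (YKR069W) and by Met8 (YBR213W), which oxidises the intermediate and inserts iron. MET8 had log2 ratios of -0.24, 1.44 and 0.99 at 15 min and 1.06, 1.40 and 1.64 at 30 min. At 1 h they ran from 0.78 to 2.51 with a median of 2.20, and at 18 h they were 1.11, 1.48 and 1.22. Its 18 h and 30 min arrays lay within the range of its 1 h arrays. MET8 was called at 30 min (1.76 ± 0.37, 3.38-fold, adjusted p = 0.0128), at 1 h (1.92 ± 0.22, 3.78-fold, adjusted p = 3.78e-06) and at 18 h (1.66 ± 0.37, 3.16-fold, adjusted p = 0.0136). At 15 min its value of 1.12 ± 0.37 was not called. The 30 min call was lost without 30 min replicate 2 (adjusted p = 0.0947) or replicate 3 (0.117), and the 18 h call without 18 h replicate 2 (0.0628).

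MET1 was called at no time. Its log2 ratios were -0.67, 1.34 and -0.82 at 15 min and 1.55, 1.21 and 1.01 at 30 min. At 1 h they ran from -0.14 to 0.87 with a median of 0.24, and at 18 h they were 0.65, 1.16 and 0.79. After centring, all 3 arrays at 30 min were above all 6 at 1 h, the reverse of the order seen for MET3, MET14 and MET16. The fitted values were -0.03 ± 0.41 at 15 min, 1.28 ± 0.41 at 30 min (adjusted p = 0.0659), 0.31 ± 0.24 at 1 h (adjusted p = 0.317) and 0.89 ± 0.41 at 18 h (adjusted p = 0.213). The 30 min value passed the threshold in 5 of the 26 alternatives run, with values of 1.16 to 1.28. These were no dye term (adjusted p = 0.0136), Cy5-treated arrays only (0.0284), the brightness trend removed (0.0431), array weights (0.00234) and 15 min replicate 2 left out (0.0121). The spots of MET1 differed by up to 0.99 log2 units, on 15 min replicate 3, the largest gap between spots of any of the 10 genes, whose median gap was 0.08.

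MET1 lay below MET8 on 6 of 6 arrays at 1 h, by 0.76 to 2.30 log2 units. The mean of MET1 minus MET8 was -1.61 (SD 0.54), and the exact sign-flip test gave p = 0.0312 (adjusted over 4 pairs, 0.0417). The differences were -0.42, -0.11 and -1.80 at 15 min, 0.49, -0.19 and -0.64 at 30 min, and -0.46, -0.32 and -0.44 at 18 h. The partner enzymes of sirohaem synthesis thus differed in transcript ratio at 1 h by more than the spread between arrays.

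**Figure D3:**
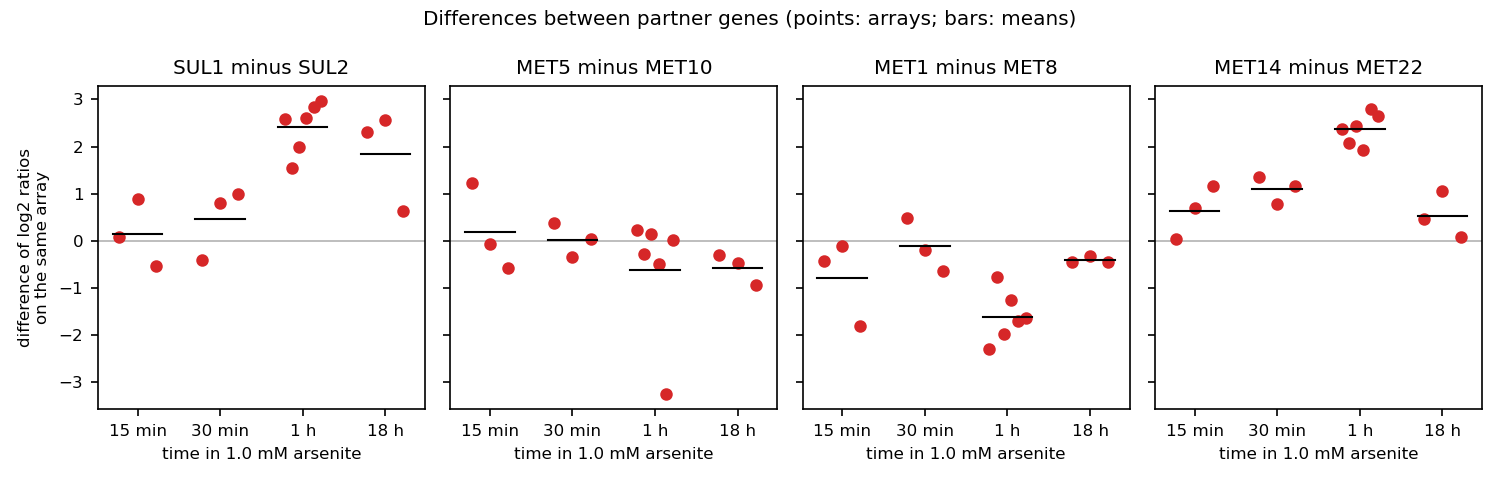
Difference of the log2 ratios of partner genes on the same array (vertical axis) by time in arsenite (horizontal axis), with 1 point per array and a bar at the mean. At 1 h SUL1 minus SUL2 and MET14 minus MET22 are above 0 and MET1 minus MET8 is below 0 on 6 of 6 arrays, and MET5 minus MET10 has 1 array at -3.26.

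Ordered by fitted value at 1 h, the genes ran MET3, MET14, MET16, MET10, MET5, MET8, SUL1, MET22, MET1 and SUL2. MET3 exceeded MET14 on 6 of 6 arrays, by 0.37 (SD 0.23), and MET16 exceeded MET10 on 5 of 6, by 0.95 (SD 0.52). Neighbours that did not differ beyond their spread were MET14 and MET16 (0.18, SD 0.35), MET10 and MET5 (0.61, SD 1.33), MET5 and MET8 (0.03, SD 1.44), and SUL1 and MET22 (0.12, SD 0.36). MET8 exceeded SUL1 by a mean no larger than its spread (0.48, SD 0.49), though on 6 of 6 arrays. MET22 exceeded MET1 by 1.01 (SD 0.58) and MET1 exceeded SUL2 by 1.30 (SD 0.60), each on 6 of 6 arrays. At 18 h the order by fitted value began with SUL1, MET5, MET3 and MET10. SUL1 stood above MET5 on 3 of 3 arrays, by 1.02 (SD 0.14), while MET5, fitted higher than MET3, lay below it on 3 of 3 arrays by 0.59 (SD 0.39), since the fitted value of MET5 carries its dye effect.

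Between 18 h and 1 h, MET14 and MET16 were called lower at the later time, relative to the median gene of each array. The 18 h minus 1 h difference was -2.15 ± 0.42 for MET14 (adjusted p = 0.0223) and -2.04 ± 0.45 for MET16 (adjusted p = 0.032). These were 2 of the 10 genes, where 0.361% of all genes were called lower at 18 h than at 1 h. Both calls were lost without 1 h replicate 4 or 5 or 18 h replicate 1 or 3, and with the arrays scaled to an equal spread. The call of MET16 was also lost where only Cy5-treated arrays were fitted, the orientation of all 18 h arrays. Without centring the differences were -0.61 for MET14 and -0.50 for MET16, neither called (adjusted p = 0.477 and 0.557). MET3 fell short of the threshold at -1.88 ± 0.48 (adjusted p = 0.0681), and was past it with no dye term (-2.19, adjusted p = 0.00612). MET3 was also called with the brightness trend removed, with array weights and with the times fitted alone. The same held without 15 min replicate 1 or 3, 30 min replicate 1, or both replicates 1 of those times. It was not called without centring, with scaled arrays or with Cy5 arrays only. The permeases had positive differences, 1.23 for SUL1 and 1.73 for SUL2, neither of them called. Without centring both were called higher at 18 h, at 2.78 for SUL1 (adjusted p = 0.0124) and 3.27 for SUL2 (adjusted p = 0.00243). Both were also called with array weights (1.52 and 1.54), and SUL2 with the brightness trend removed (1.27, adjusted p = 0.0107). MET5 (0.33), MET10 (-0.45), MET8 (-0.26), MET22 (-0.42) and MET1 (0.57) were not called either.

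No gene on the array was called by limma between 30 min and 15 min or between 1 h and 30 min, so 0 of the 10 genes were called where 0% of all genes were. At an unadjusted p under 0.05, 383 genes and 3 of the 10 differed between 30 min and 15 min, namely MET3 (1.27), MET1 (1.31) and MET16 (0.97). Between 1 h and 30 min, 286 genes and 5 of the 10 did, namely MET14 (1.66), MET10 (1.50), MET3 (1.32) and MET16 (1.17), all higher at 1 h, and SUL2 (-1.22). The step of MET14 passed the threshold with no dye term (2.02, adjusted p = 0.0355).

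**Figure D4:**
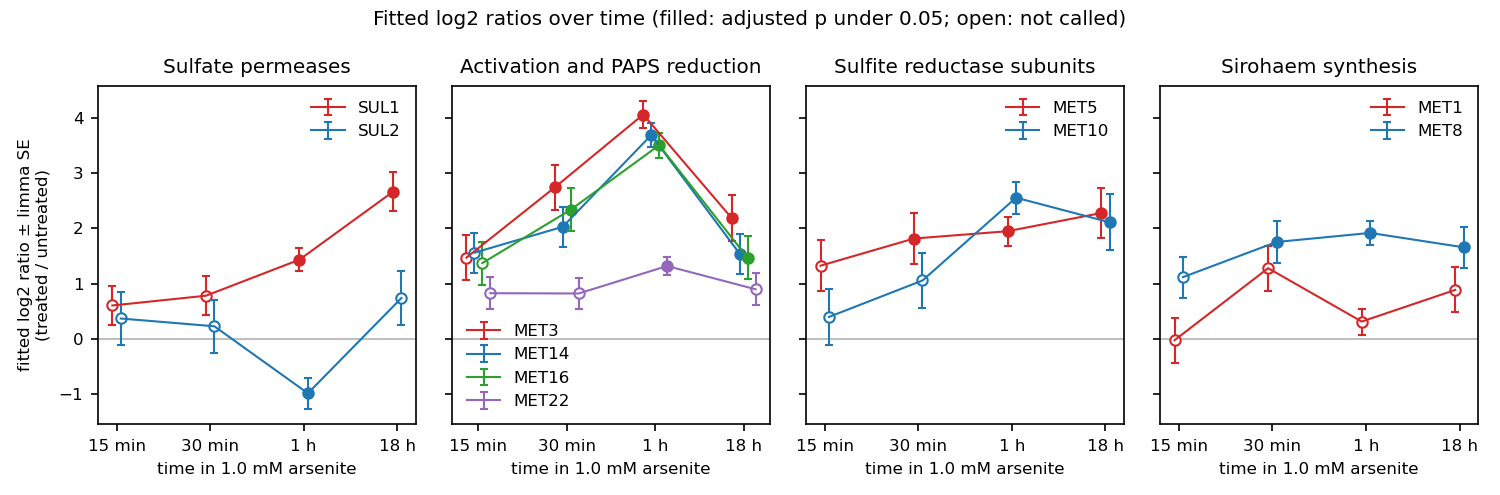
Fitted log2 ratio of treated over untreated cells (vertical axis, with limma SE) by time in arsenite (horizontal axis), in 4 panels by role; filled points were called. MET3, MET14 and MET16 are highest at 1 h, SUL1 is highest at 18 h, and MET1 is called at no time.

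The dye orientation moved with the values of these genes. At 1 h, all 10 had a higher mean on the 3 Cy3-treated arrays than on the 3 Cy5-treated ones, by 0.04 to 1.98 log2 units with a median of 0.57. The dye effect was called by limma in 0 of all genes, and its median over all genes was -0.05. The unadjusted p was 0.00187 for MET5 and 0.091 or more for the other genes of the set. Because that effect was subtracted at the times with 1 orientation only, 12 of the 30 fitted values at 15 min, 30 min and 18 h lay outside the range of their own 3 arrays. An example is MET5 at 15 min, fitted at 1.33 with arrays between 0.19 and 0.51. The Cy3-treated arrays were also the ones deposited with fewer digits (median 7, against 15 or 16 on the others). Dye orientation and the form of deposit therefore cannot be told apart here. The part of the dye in these differences was not tested beyond the fits with and without its term.

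Across the 15 arrays, 8 of the 10 genes correlated with the mean of the other 9 at 0.56 to 0.90 (Pearson), highest for MET10 (0.90) and MET3 (0.87). MET1 (0.06) and SUL2 (-0.36) were the exceptions. These arrays share their untreated channel's kind of RNA and, within a time, their treatment, so the values are descriptions. The named genes whose log2 ratios most resembled the mean of the 10 over 15 arrays were RCN2 (0.94), PMC1 (0.92), AAD3 (0.92), VBA2 (0.92) and HER1 (0.91). Pmc1 is the vacuolar calcium pump, Vba2 a vacuolar transporter of basic amino acids, Rcn2 belongs to the calcineurin regulator family, and Aad3 is a putative aryl-alcohol dehydrogenase with close copies in the genome whose spots may cross-hybridise.

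The steps around the route were described through lists, whose counts at 1 h stand beside 17.1% of all genes called higher and 22.6% called lower. Of 18 genes that carry sulfide on to cysteine and methionine, 5 were called higher and 4 lower at 1 h, with a median of 0.30. The highest was CYS3 (2.74 ± 0.32), the cystathionine gamma-lyase that makes cysteine, and the lowest SAH1 (-2.27 ± 0.35), which breaks down S-adenosylhomocysteine. HOM2 (-1.62), which makes the aspartate semialdehyde of the carbon backbone, MET13 (-1.56), a methylenetetrahydrofolate reductase, and SAM4 (-0.78), a homocysteine methyltransferase, were also called lower. The others called higher were MET17 (2.59), which joins sulfide to the carbon backbone, STR3 (2.57), the cystathionine beta-lyase, MET6 (1.51), the methionine synthase, and HOM6 (0.70), the homoserine dehydrogenase. With the brightness trend removed, 9 of the 18 were called higher and 3 lower, SAH1 was at -1.34, and SAM4 (-0.48, adjusted p = 0.0544) was no longer called. The 17.1% and 22.6% are from the fit with no trend removed, so these counts have no matching share beside them. All genes called at 1 h numbered 2197 in that fit, and 1316 to 3001 over the alternatives other than leaving out 1 array.

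Of 6 regulators, 2 were called higher at 1 h and 1 lower. MET30, the ubiquitin ligase subunit that restrains Met4, was at 1.68 ± 0.17, MET28, a partner of Met4, at 1.23, and CBF1, the DNA-binding partner, at -0.48. Of 10 genes for transport or use of other sulfur compounds, 6 were called higher and 0 lower, from BDS1, a sulfatase (2.66), to SAM3, the S-adenosylmethionine permease (-0.48, not called). By unadjusted p, 8 of these 10 were under 0.05, as were 2628 of all 5539 genes.

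Reduction of PAPS and sulfite draws on thioredoxin and NADPH. Among the 3 thioredoxin genes, TRX2 (2.94 ± 0.18) and the reductase TRR1 (1.19 ± 0.21) were called higher at 1 h and TRX1 (0.23) was not called. Of 10 pentose phosphate pathway genes, the main source of cytosolic NADPH, 3 were called higher and 4 lower. ZWF1 (1.68), the glucose-6-phosphate dehydrogenase that opens the pathway, SOL4 (1.94) and TKL2 (1.95) were the higher ones, and TKL1 (-2.54), the main transketolase, was the lowest. The other genes called lower were RKI1 (-2.44), TAL1 (-1.20) and RPE1 (-0.91), which act in the non-oxidative branch. Of 8 haem synthesis genes, which share uroporphyrinogen III with sirohaem synthesis, HEM15 (0.78), the ferrochelatase, was called higher and HEM14 (-0.52), the protoporphyrinogen oxidase, lower. With the brightness trend removed HEM14 was at -0.27 and no longer called (adjusted p = 0.0973), and HEM2 (0.55, adjusted p = 0.00501) was called higher. Under that setting TRX1 (0.87, adjusted p = 0.00134), MET4 (0.73, adjusted p = 0.00393) and OPT1 (0.58, adjusted p = 0.00489), a glutathione transporter, were also called higher.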

How the data were processed

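The authors deposited 1 log2 ratio per spot and array (13056 spots, 15 arrays, 0 missing values), while how cells were grown and how slides were scanned or normalised is not given in the sources used here. On 10 arrays each deposited log2 value came from 2 whole numbers divided by each other (relative tolerance 5e-14), so no normalisation was visible there. This did not hold for 15 min replicate 1 or for 30 min replicate 1, whose scale was taken from the others. It did not hold either for the 3 Cy3-treated arrays at 1 h, deposited with a median of 7 digits against 15 or 16 elsewhere. Per the labels, treated RNA was in Cy3 on 3 arrays, whose zeros carried minus signs (30, 5 and 23 of them), so their signs had been turned; the direction treated over untreated is likely, not stated.

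Spots were named from the platform annotation (11138 with 1 gene name, 0 with several, 1918 unnamed and left out), and 11128 matched the gene table of assembly R64, used for names only. Spots were averaged to 5539 genes and arrays centred on their gene median. R 4.3.3 with limma 3.58.1 (lmFit, eBayes) fitted the 15 arrays together, with 1 mean for each time and a dye effect for each gene (10 residual and 5.41 prior degrees of freedom). It tested 7 comparisons, two-sided, with Benjamini-Hochberg adjustment over all genes within a comparison. Partner genes were compared by an exact sign-flip test over the 6 arrays at 1 h, adjusted over 4 pairs. The fit was checked on simulated data.

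Gene brightness was estimated from the whole numbers of 10 arrays as a median over arrays. This stood in place of the mean first set, because reduced fractions understate single values. The brightness trend was removed by loess (span 0.4) as an alternative. Other alternatives were no centring, scaling to an equal spread, no dye term, Cy5 arrays only, each comparison alone, array weights, the replicate block, 1 spot only, and each array left out. Leaving out 15 min replicate 1 and 30 min replicate 1 together, and the list counts with the brightness trend removed, were added after seeing the data.

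All 10 genes are named at every time. From each list the highest and lowest genes at 1 h are named, and the genes called in the rarer direction; MET28, TRR1, MET17, STR3, MET6, HOM6, RKI1, TAL1, RPE1, HEM2, MET4 and OPT1 were named after their values were seen. Genes alike were the 5 with the highest Pearson correlation with the mean of the 10. The members and lists were chosen with earlier results of these data known. Ratios do not give signal over background, and precision is limited by how many arrays there are. Promoter motifs were not searched here.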

Additional observations from a re-analysis of the deposited data

Results flagged for a closer look

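The differences between times that passed the test were MET14 and MET16, each lower at 18 h than at 1 h relative to untreated cells. The 18 h minus 1 h difference was -2.15 for MET14, with arrays at 0.58, 1.71 and 1.26 at 18 h and between 2.64 and 4.31 at 1 h. It was -2.04 for MET16, with arrays at 1.28, 2.16 and 0.77 at 18 h and between 2.94 and 4.21 at 1 h. After centring, the arrays of these times did not overlap for either gene. As deposited they did, with MET14 at 0.39, 2.73 and 1.81 at 18 h and between 1.42 and 4.19 at 1 h. The deposited values of MET16 were 1.10, 3.17 and 1.31 at 18 h and between 1.72 and 3.78 at 1 h, and neither difference was called without centring. No 1 h array of the 10 genes stood far enough from the other 5 to pass Dixon's criterion at 1 h, MET5 on replicate 5 included.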

How the results depend on the processing

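Over 58 log2 ratios and time differences of the 10 genes and 26 alternatives, 1391 of 1508 values kept their sign and side of the threshold, 50 lost a call, 44 gained one and 23 changed sign. None of the 23 called values changed sign, and 6 stayed called under all 26 (MET3, MET14, MET16, MET10 and MET8 at 1 h, and SUL1 at 18 h). As deposited, without centring, fitted values shifted, for every gene alike, by 0.78 (15 min), 0.20 (30 min), -0.55 (1 h) and 1.00 (18 h). At 1 h that left 6 of the 10 genes called higher and 1 lower, and among all genes 160 higher and 1308 lower, against 946 and 1251 when centred. At 18 h all genes then split 348 higher and 8 lower, against 295 and 175 when centred. At 1 h the number of the 10 called stayed between 7 and 9 under every alternative run.

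The number of the 10 genes called elsewhere depended on the setting. At 15 min, where 0 were called, array weights gave 5 (304 of all genes) and leaving out 15 min replicate 1 and 30 min replicate 1 together gave 4 (71 of all genes). At 30 min, 5 were called (429 of all genes), but 2 as deposited (101), 1 with scaled arrays (147), 8 with the brightness trend removed (704), 8 with array weights (2440) and 2 with the time point fitted alone (15). At 18 h, 7 were called (470), but 3 with scaled arrays (220). Between 30 min and 15 min array weights gave 1 (1570 of all genes). Between 1 h and 30 min array weights gave 1 (47 of all genes). No dye term gave 1 and the times fitted alone 2, each with at most 47 of all genes called. For 18 h minus 1 h, 2 were called lower (78 of all genes either way), against 0 with scaled arrays (56), 4 with the brightness trend removed (253), 1 with Cy5 arrays only (54) and 5 with array weights (495). As deposited 2 were called as well, but these were SUL1 and SUL2, both higher, in place of MET14 and MET16, and all genes split 1014 higher and 1 lower. Leaving out 1 array gave 0 to 1 of the 10 at 15 min (13 to 47 of all genes) and 3 to 6 at 30 min (38 to 769). It gave 3 to 7 at 18 h (227 to 589). For 30 min minus 15 min it gave 0 to 1 (0 to 213), and for 18 h minus 1 h 0 to 3 (9 to 173). The lowest counts of the 10 at 30 min and 18 h came without 30 min replicate 2 or 3 and without 18 h replicate 2. For 18 h minus 1 h they came without 1 h replicate 4 or 5 or 18 h replicate 1 or 3.

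Values that changed sign were not called under the settings that turned them. MET1 at 15 min was 0.75 as deposited, 0.037 with the first spot only and 0.28 without both replicates 1. SUL2 at 30 min was -0.036 with no dye term, with Cy5 arrays only and with 30 min alone, -0.29 with array weights and -0.36 without both replicates 1. As deposited, MET1 at 1 h was -0.24, and the 18 h minus 1 h difference was 1.12 for MET22, 1.10 for MET10 and 1.28 for MET8. That difference was -0.66 for MET5 with no dye term and with those times alone. Leaving out 1 array, MET10 at 15 min ran from -0.077 to 0.98, MET1 at 15 min from -0.72 to 0.36, and SUL2 at 30 min from -0.36 to 0.61. Likewise the 18 h minus 1 h difference ran from -0.35 to 0.75 for MET5, -0.79 to 0.085 for MET10 and -0.64 to 0.15 for MET8. The cause was not tested.

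With the replicate block the 15 min, 30 min, 1 h and 18 h counts of the 10 genes were 0, 5, 9 and 7, as without it, and the block changed no other call of these genes (block correlation -0.05). The residuals of same-numbered arrays correlated at -0.55 to 0.64 over 18 pairs, 7 of them over 0.1, and those of other-numbered arrays at -0.75 to 0.63. Residuals around the mean of few arrays are tied to each other, so these values do not settle whether the numbers pair arrays. Over the other alternatives all genes called numbered 5 to 304 at 15 min and 15 to 2440 at 30 min, then 1316 to 3001 at 1 h, and 220 to 1414 at 18 h. They numbered 0 to 1570 for 30 min minus 15 min, 0 to 47 for 1 h minus 30 min and 54 to 1015 for 18 h minus 1 h.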
